A study of Mus musculus with 8 samples.

Results

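The genes described here are the 8 neuronal nicotinic acetylcholine receptor subunits Chrna3, Chrna4, Chrna5, Chrna6, Chrna7, Chrnb2, Chrnb3 and Chrnb4. They were taken by gene symbol from the annotated probe table, which gives 1 probe to each, so that 8 of 55681 probes and 8 of 23912 named genes are members. The symbols were chosen by a reading of the same arrays, with the ratio of Gfp-positive over Gfp-negative cells and its rostral and caudal values known. The ratio is therefore a description with no test, and the rostral against caudal p-values are those of a fit to all genes and are not independent evidence. All samples came from ventral midbrains of E14.5 Pitx3(gfp/+) mouse embryos, in which 1 Pitx3 allele carries Gfp, so every group shared that genotype. The tissue was cut into a rostral and a caudal part, dissociated and sorted by Gfp, giving 4 rostral and 4 caudal pools of Gfp-positive cells, each from 5 to 7 embryos. On every array the sorted pool was labelled with Cy3 and a common reference of Gfp-negative cells of the same embryos with Cy5. Dyes were not swapped, so a dye bias of a probe is part of its ratio.

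Nicotinic receptors are cation channels opened by acetylcholine and built as a ring of subunits, and the subunits in the ring set agonist affinity, calcium entry and desensitisation. In adult rodents, dopaminergic neurons of the midbrain are known for receptors that hold alpha6 and beta3 beside alpha4 and beta2, many of them on axon terminals in the striatum. Receptors of alpha3 and beta4, with or without alpha5, are typical of autonomic ganglia and of the medial habenula, and alpha7 forms receptors on its own.

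Promoters are shown for 2 subunit pairs that form receptors of their own, alpha4 with beta2, which lay above the Gfp-negative cells, and alpha3 with beta4, which did not. They run from 250 bases before to 50 after the gene start, 5′ to 3′ on the gene's own strand, from RefSeq on build GRCm38.p6, and all lie on the minus strand. Chrna4 lies at chr2:181039128-181039427, Chrnb2 at chr3:89764583-89764882, Chrna3 at chr9:55026513-55026812 and Chrnb4 at chr9:55048495-55048794. Capitals mark the GC box, GGGCGG or its complement CCGCCC.
Chrna4: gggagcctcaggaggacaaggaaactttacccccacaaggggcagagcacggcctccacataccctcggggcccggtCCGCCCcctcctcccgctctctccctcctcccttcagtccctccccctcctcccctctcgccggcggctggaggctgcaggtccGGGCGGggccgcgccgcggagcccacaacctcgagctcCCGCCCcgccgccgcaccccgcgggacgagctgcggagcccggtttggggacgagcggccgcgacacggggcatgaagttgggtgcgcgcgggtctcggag
Chrnb2: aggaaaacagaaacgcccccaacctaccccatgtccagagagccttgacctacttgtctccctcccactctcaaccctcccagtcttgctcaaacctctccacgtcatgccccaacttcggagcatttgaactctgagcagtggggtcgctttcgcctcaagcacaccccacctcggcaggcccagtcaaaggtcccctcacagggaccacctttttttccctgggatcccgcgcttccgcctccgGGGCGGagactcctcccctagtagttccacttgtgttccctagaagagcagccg
Chrna3: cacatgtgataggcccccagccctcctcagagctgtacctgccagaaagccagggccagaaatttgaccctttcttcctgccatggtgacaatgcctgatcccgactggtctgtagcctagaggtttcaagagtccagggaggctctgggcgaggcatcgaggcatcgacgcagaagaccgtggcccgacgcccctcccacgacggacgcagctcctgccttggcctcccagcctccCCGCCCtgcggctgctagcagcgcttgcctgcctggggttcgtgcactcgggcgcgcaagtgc
Chrnb4: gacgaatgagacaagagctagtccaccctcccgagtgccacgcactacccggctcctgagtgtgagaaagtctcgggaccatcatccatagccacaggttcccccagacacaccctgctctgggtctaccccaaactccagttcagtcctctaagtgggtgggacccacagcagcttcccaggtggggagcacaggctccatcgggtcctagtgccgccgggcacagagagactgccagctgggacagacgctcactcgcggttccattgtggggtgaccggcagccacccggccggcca
The Chrna4 window was the richest of the 4 in G and C, at 74.3%, against a median of 52.7% over all promoters of that length. It held 33 CpG pairs and 3 GC boxes. Chrnb2 had 59.0% G and C with 12 CpG pairs and 1 GC box, Chrna3 had 64.3% with 18 and 1, and Chrnb4 had 63.0% with 14 and no GC box. Of the 8 members, 6 have a promoter in the RefSeq table, 7 windows in all because Chrna5 has 2, while Chrna6 and Chrnb3 have none there. A GC box, searched on both strands after the sequences had been seen, was in 5 of the 7 windows and in 35.7% of all 32851 promoters. Of 4 motifs of dopaminergic factors, AAAGGTCA (the NBRE, bound by Nr4a2) was in 1.51% of all promoters, TAATCC (bicoid type, as bound by Pitx3) in 7.06%, TGTTTAC (forkhead, as bound by Foxa2) in 3.65% and TAATTA (homeodomain, as bound by Lmx1a) in 5.29%. None of these 4 strings was in any of the 7 member windows on either strand, so none overlapped a GC box. A match or its absence describes these letters in this window only.

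Per array, 62.5% to 70.4% of probes had a Cy3 signal well above background and 54.0% to 63.5% a Cy5 signal that was, and the ratios of any pair of arrays correlated at 0.81 to 0.908 over genes. The sorted pools carried dopaminergic markers: 10 of 10 lay above the reference in all 8 pools, with a median log2 ratio of 3.49. Median log2 ratios of other lists were -0.64 for motor and oculomotor, -2.46 for habenular and glutamatergic, -3.18 for GABAergic, -2.95 for progenitor, -2.35 for endothelial and -4.16 for erythroid markers. Not every marker went with its list's median. Of 8 habenular and glutamatergic markers measured, Slc17a6 (mean 0.67) lay above the reference in all 8 pools and 4 lay below it. Of 10 GABAergic markers 8 lay below in all 8 pools, while Slc32a1 averaged 0.28 and Gad2 -0.09. Of 7 endothelial markers Pecam1 (mean 0.13) lay above in all 8 pools and 6 below. Over all genes 24.4% lay above and 28.1% below in all 8 pools. Microglial markers had a median of -0.21. Dopaminergic markers summed to 1330000 to 1420000 Cy3 units in rostral pools and 1460000 to 1610000 in caudal pools, and 2 of 10, Slc18a2 and En1, were lower in rostral pools by limma (adjusted p = 0.00778 and 0.0142).

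Chrna6 and Chrnb3, which lie side by side on chromosome 8, were the 2 subunits furthest above the Gfp-negative cells. Chrna6 encodes alpha6, a ligand-binding subunit with a narrow range in the brain. Its log2 ratio was 5.77, 5.74, 5.40 and 5.70 in rostral pools 1 to 4 and 6.02, 5.88, 5.92 and 5.82 in caudal pools 1 to 4. All 8 pools lay between 5.40 and 6.02, and every caudal pool was above every rostral pool. The mean over 8 pools was 5.78 ± 0.18 (SD, n = 8), a 54.98-fold excess in Gfp-positive cells. Chrna6 ranked 2 of 18548 genes by this mean, behind the dopamine transporter gene Slc6a3 at 5.98. In a bulk sample, more cells with the RNA and more RNA per cell cannot be told apart.

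Chrnb3 encodes beta3, an accessory subunit that does not bind the ligand itself. Its log2 ratio was 2.87, 2.98, 3.07 and 3.12 in rostral pools and 2.42, 2.92, 2.59 and 2.19 in caudal pools. Rostral pools clustered near 3, caudal pools spread more widely below, and caudal pool 2 reached into the rostral range. The mean over 8 pools was 2.77 ± 0.33 (SD, n = 8), or 6.82-fold, and ranked 41 of 18548. The Gfp-negative signal was well above background on 1 of 8 arrays, so the fold depends on how background was removed. The scanner software's own processed signals gave a mean log2 ratio of 4.43, or 21.5-fold.

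Chrna4 and Chrnb2 encode alpha4 and beta2, the pair that makes up most high-affinity nicotine binding in the adult rodent brain. Chrna4 had log2 ratios of 1.67, 1.90, 1.85 and 1.88 in rostral pools and 1.34, 1.49, 1.35 and 1.35 in caudal pools. The 2 sets did not overlap, and rostral pools were higher. Over 8 pools Chrna4 averaged 1.60 ± 0.25 (SD, n = 8), or 3.04-fold, and ranked 218. Chrnb2 had log2 ratios of 0.96, 0.82, 0.90 and 0.64 in rostral pools and 1.15, 0.88, 1.25 and 0.84 in caudal pools. All 8 were above 0, and the 2 sets overlapped. Its mean was 0.93 ± 0.19 (SD, n = 8), or 1.91-fold, at rank 733.

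Chrna5, Chrna3 and Chrnb4 follow one another on chromosome 9, and none of them was above the reference in all 8 pools. Chrna3, the alpha3 ligand-binding subunit of ganglionic receptors, had log2 ratios of 0.28, -0.05, 0.66 and 0.44 in rostral pools and -0.16, 0.10, -0.30 and -0.41 in caudal pools. The values lay on both sides of 0, with 3 of 4 rostral pools above it and 3 of 4 caudal pools below it. The mean over 8 pools was 0.07 ± 0.37 (SD, n = 8). Chrna5, an accessory subunit, had log2 ratios of -1.26, -0.25, -1.10 and -0.87 in rostral pools and -1.35, -0.81, -1.02 and -0.21 in caudal pools. It was below 0 in all 8, with a wide spread in both parts. The mean was -0.86 ± 0.43 (SD, n = 8), so that Gfp-positive cells were 1.81-fold lower. In caudal pool 1 its Cy3 signal was not well above background, and with the scanner software's processed signals the mean was -1.68, or 3.21-fold lower. Gene models of Chrna5 and Chrna3 overlap.

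Chrnb4, the beta4 subunit that partners alpha3, had log2 ratios of -1.31, -1.94, -1.27 and -1.03 in rostral pools and -1.26, -1.72, -1.30 and -1.41 in caudal pools. All 8 were more than 1 below 0, and rostral and caudal ranges overlapped. The mean was -1.40 ± 0.29 (SD, n = 8), or 2.65-fold lower in Gfp-positive cells. The genes on either side of this cluster had other values: Psma4, a proteasome subunit gene, averaged -0.20 and Ube2q2, a ubiquitin-conjugating enzyme gene, averaged 0.32. Neither differed between rostral and caudal pools by limma (adjusted p = 0.755 and 0.793). The neighbours of the chromosome 8 pair, Tex24 and Poteg, were well above background in Cy3 on 1 of 8 arrays each.

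The member probe of Chrna7, the alpha7 subunit, was near the limit of detection, while a second probe, described next, was not. The member probe's Cy3 signal cleared background on 3 of 4 rostral and on 0 of 4 caudal arrays, and its Cy5 signal on 0 of 8. Its log2 ratios were 0.68, 0.01, 0.66 and -0.34 in rostral pools and -0.41, -0.37, -0.34 and -0.35 in caudal pools. Its normalised log2 Cy3 signals were 7.48, 6.85, 7.54 and 6.43 in rostral pools and 6.44, 6.43, 6.38 and 6.50 in caudal pools. Rostral pool 4, like all caudal pools, was not well above background, so no fold is given. With 3 of 8 arrays above background, the gene was in neither comparison over all genes.

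A further probe without a gene symbol is described as Chrna7 in the probe annotation, and 1 such probe is described as Chrna4. The second Chrna7 probe was well above background in Cy3 on all 8 arrays and averaged 0.12 ± 0.46 in rostral pools and -0.11 ± 0.43 in caudal pools (SD, n = 4 each), with a limma change of 0.23 and adjusted p = 0.799 over all probes. It did not give the split of the first probe. The second Chrna4 probe had log2 ratios of 0.10, 0.98, 1.87 and 1.26 in rostral pools and 0.60, 0.49, 1.05 and 1.11 in caudal pools. It was above the reference in all 8 pools, but its rostral SD of 0.74 was larger than that of the first probe, 0.11. Its change of 0.24 had adjusted p = 0.84.

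Of the 7 members measured, 4 (Chrna6, Chrnb3, Chrna4 and Chrnb2) lay above the reference in all 8 pools, where 24.4% of 18548 genes did. Another 2 (Chrna5 and Chrnb4) lay below it in all 8 pools, as did 28.1% of genes. A mean at least 2-fold above the reference was reached by 3 members and by 3.35% of genes, and at least 2-fold below by 1 member and by 9.71% of genes. These shares stand beside a choice made with the ratio known, and nothing is read from them. The counts at 2-fold also depend on the processing. With the scanner software's processed signals Chrnb2 was 2.06-fold above the reference and Chrna5 3.21-fold below it, both past 2-fold. The median log2 ratio of all genes was -0.004. In order, the subunits ran Chrna6, Chrnb3, Chrna4, Chrnb2, Chrna3, Chrna5 and Chrnb4. The first 4 steps of this order had no overlapping pools within the caudal part, and within the rostral part only Chrnb2 and Chrna3 overlapped, where 1 pool of Chrna3 stood above 1 pool of Chrnb2. Chrna3 and Chrna5 overlapped in caudal pools and not in rostral pools, and Chrna5 and Chrnb4 overlapped in both parts.

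**Figure D1:**
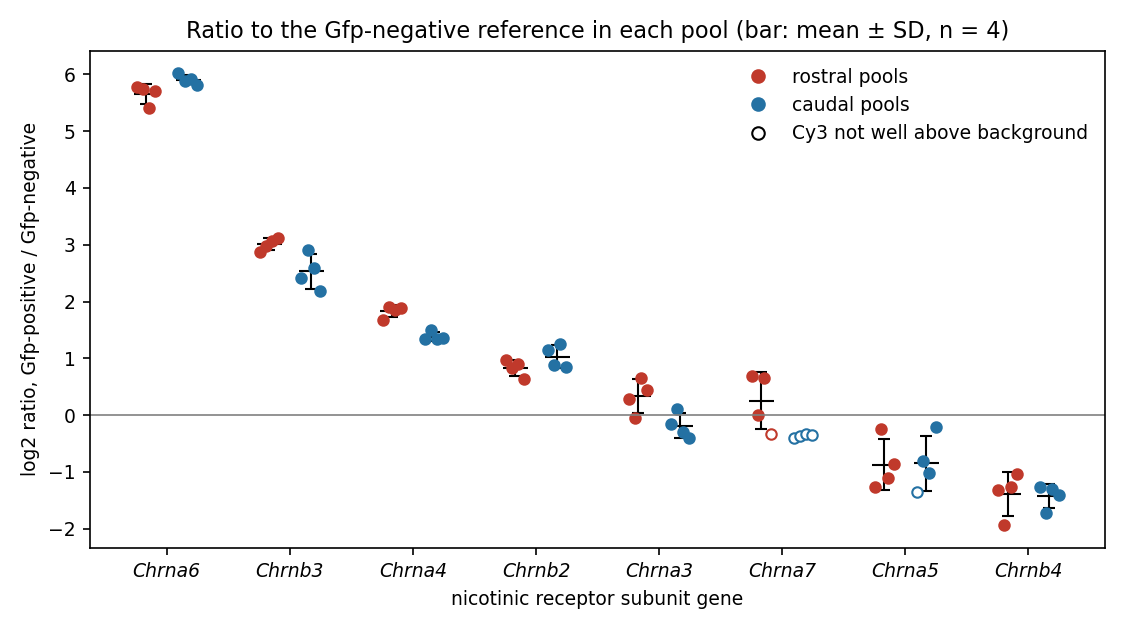
Log2 ratio of Gfp-positive over Gfp-negative signal on the y axis for each subunit gene, with 1 point per pool, rostral left of caudal, and bars for the mean ± SD of 4 pools. Open points have a Cy3 signal not well above background. Chrna6 stood near 5.8, Chrnb3, Chrna4 and Chrnb2 lay above 0 in every pool, and Chrna5 and Chrnb4 lay below 0 in every pool.

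Rostral and caudal pools were compared next, which asks whether dopaminergic cells of the 2 parts differ in their receptor subunits. Chrna4 was the 1 member of 7 tested that was called, at a limma adjusted p below 0.05. It was 1.83 ± 0.11 in rostral pools and 1.38 ± 0.07 in caudal pools (SD, n = 4 each), a limma log2 change of 0.44 (SE 0.08, 95% interval 0.25 to 0.63, adjusted p = 0.0147), or 1.36-fold higher in rostral pools. Over all genes, 3.53% of 18099 were higher in rostral pools and 2.8% were lower, so 1 of 7 members in 1 direction rests on a single gene. Over all genes tested the median absolute change was 0.13, and the central 95% of changes lay between -0.67 and 0.77. In simulated data the fit recovered 26% of genes given a log2 change of 0.5 and 73% of those given 1. A member that was not called may therefore still differ between the parts.

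The Chrna4 call held without each pool in turn (adjusted p = 0.0143 to 0.0484). With the row of the slide as a block it had limma adjusted p = 0.0261, but with the replicate number as a block 0.0504, which is not a call. The second Chrna4 probe, also well above background, was not called (change 0.24, limma adjusted p = 0.84 over all probes). Within a row only 2 pools of each part remain. There the change of the member probe was 0.37 in row 1 (adjusted p = 0.394) and 0.52 in row 2 (adjusted p = 0.159). Markers of other cells changed between the parts by limma as well. Habenular and glutamatergic markers had 1 of 8 tested higher in rostral pools (Tbr1) and 3 lower (Pou4f2, Nhlh2 and Lhx9), and progenitor markers had 1 of 9 lower (Vim). Habenular and glutamatergic markers summed to 32800 to 47900 Cy3 units in rostral pools and 45400 to 47800 in caudal pools, and progenitor markers to 53700 to 66800 in rostral pools and 65200 to 75300 in caudal pools. GABAergic markers summed to 155000 to 252000 Cy3 units in rostral pools and 111000 to 170000 in caudal pools. By limma 3 of 10 were higher and 2 of 10 lower in rostral pools. Each of the 10 was measured above background in Cy3 on at least 4 arrays. Dlx1, 1 of the 3 that were higher, was so on 4 of 8, the fewest the filter allows. The part of these markers of other cells in the Chrna4 change was not tested.

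Chrna6, Chrnb3 and Chrna3 had intervals that did not include 0 but adjusted p-values above the threshold of 0.05. Chrna6 averaged 5.65 ± 0.17 in rostral pools and 5.91 ± 0.08 in caudal pools (SD, n = 4 each), a change of -0.25 (SE 0.09, 95% interval -0.45 to -0.05, limma adjusted p = 0.143). Its pools did not overlap, as was so for Chrna4, making 2 of 7 members tested against 12.5% of all genes. Chrnb3 averaged 3.01 ± 0.11 in rostral pools and 2.53 ± 0.30 in caudal pools (SD, n = 4 each), a change of 0.48 (SE 0.17, 95% interval 0.10 to 0.86, limma adjusted p = 0.148). With the scanner software's processed signals that change was 0.12. Chrna3 averaged 0.33 ± 0.30 in rostral pools and -0.19 ± 0.22 in caudal pools (SD, n = 4 each), a change of 0.52 (SE 0.18, 95% interval 0.12 to 0.93, limma adjusted p = 0.138), and 0.91 with the processed signals.

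Chrnb2, Chrna5 and Chrnb4 had intervals on both sides of 0. Chrnb2 averaged 0.83 ± 0.14 in rostral pools and 1.03 ± 0.20 in caudal pools (SD, n = 4 each), a change of -0.20 (95% interval -0.49 to 0.09, limma adjusted p = 0.475). Chrna5 averaged -0.87 ± 0.45 in rostral pools and -0.85 ± 0.48 in caudal pools (SD, n = 4 each), and its interval of -0.65 to 0.61 leaves room for a change in either direction larger than that of Chrna4 (limma adjusted p = 0.986). Chrnb4 averaged -1.39 ± 0.39 in rostral pools and -1.42 ± 0.21 in caudal pools (SD, n = 4 each), with an interval of -0.43 to 0.51 (limma adjusted p = 0.964).

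**Figure D2:**
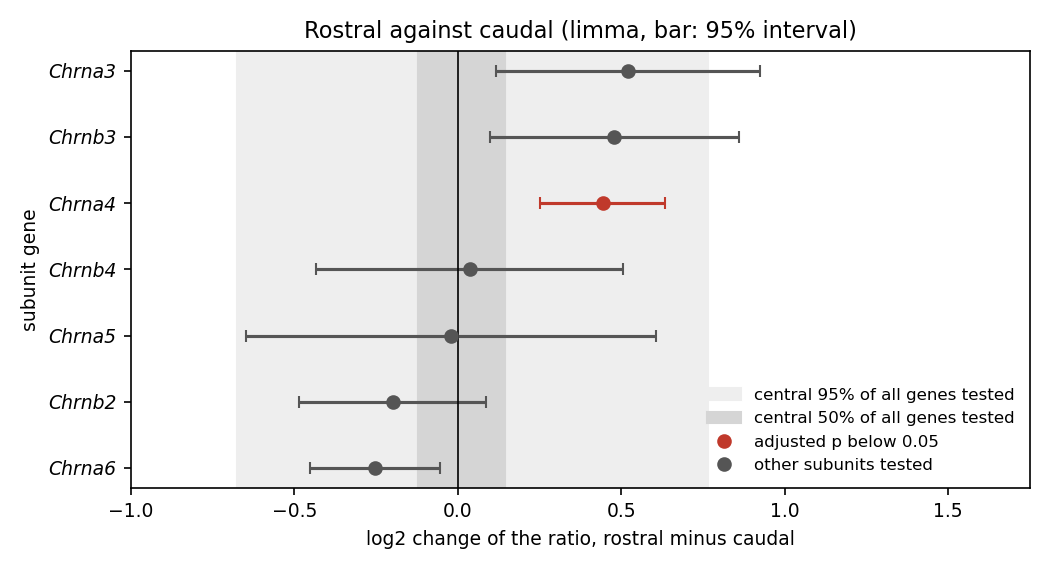
Log2 change of the ratio, rostral minus caudal, on the x axis for the 7 subunit genes tested, with 95% intervals from limma. Dark and light bands hold the central 50% and 95% of the changes of all 18099 genes. Chrna4 at 0.44 is the gene with an adjusted p below 0.05, while Chrna3 and Chrnb3 have larger estimates with wider intervals.

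Each channel was also read on its own as a normalised log2 signal, so that the sorted pools and the reference could be seen apart. Chrna6 had Cy3 signals of 17.28, 17.28, 16.55 and 17.24 in rostral pools and 17.82, 17.70, 17.69 and 17.74 in caudal pools. Its Cy5 signals were 11.50, 11.54, 11.15 and 11.54 on the rostral arrays and 11.81, 11.82, 11.77 and 11.92 on the caudal arrays. In both channels every rostral array was lower than every caudal array, and Cy5 held the Gfp-negative reference on all of them. Whether that reference was 1 pool for all arrays or made anew for each replicate is not clear from the labels. In the Cy3 channel alone the change was -0.65 (SE 0.15, limma adjusted p = 0.0381), and in the Cy5 channel alone it was -0.39 (SE 0.08, limma adjusted p = 0.524). The ratio, in which both channels enter, gave the smaller change of -0.25. The share of all genes whose rostral and caudal arrays separate in a single channel was not counted, so nothing is read from such separation.

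Chrnb3 had Cy3 signals of 9.77, 9.94, 10.18 and 10.10 in rostral pools and 9.12, 9.15, 9.49 and 9.14 in caudal pools, with no overlap. In Cy3 alone its change was 0.77 (SE 0.15, limma adjusted p = 0.0188). Its Cy5 signals, of which 7 of 8 were not well above background, differed by 0.29 (SE 0.14, limma adjusted p = 0.999). Chrna4 had Cy3 signals of 13.44, 13.72, 13.79 and 13.73 in rostral pools and 13.07, 13.19, 13.18 and 13.04 in caudal pools. Rostral pools were again all higher, with a change of 0.55 (SE 0.10, limma adjusted p = 0.0122) in Cy3 and 0.11 (SE 0.05, limma adjusted p = 0.999) in Cy5. In Cy3 alone 3 members were called, Chrna4 and Chrnb3 higher and Chrna6 lower in rostral pools, where 6.04% of all genes were called in either direction. In Cy5 alone no member was called, and 3 of 18099 genes were.

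**Figure D3:**
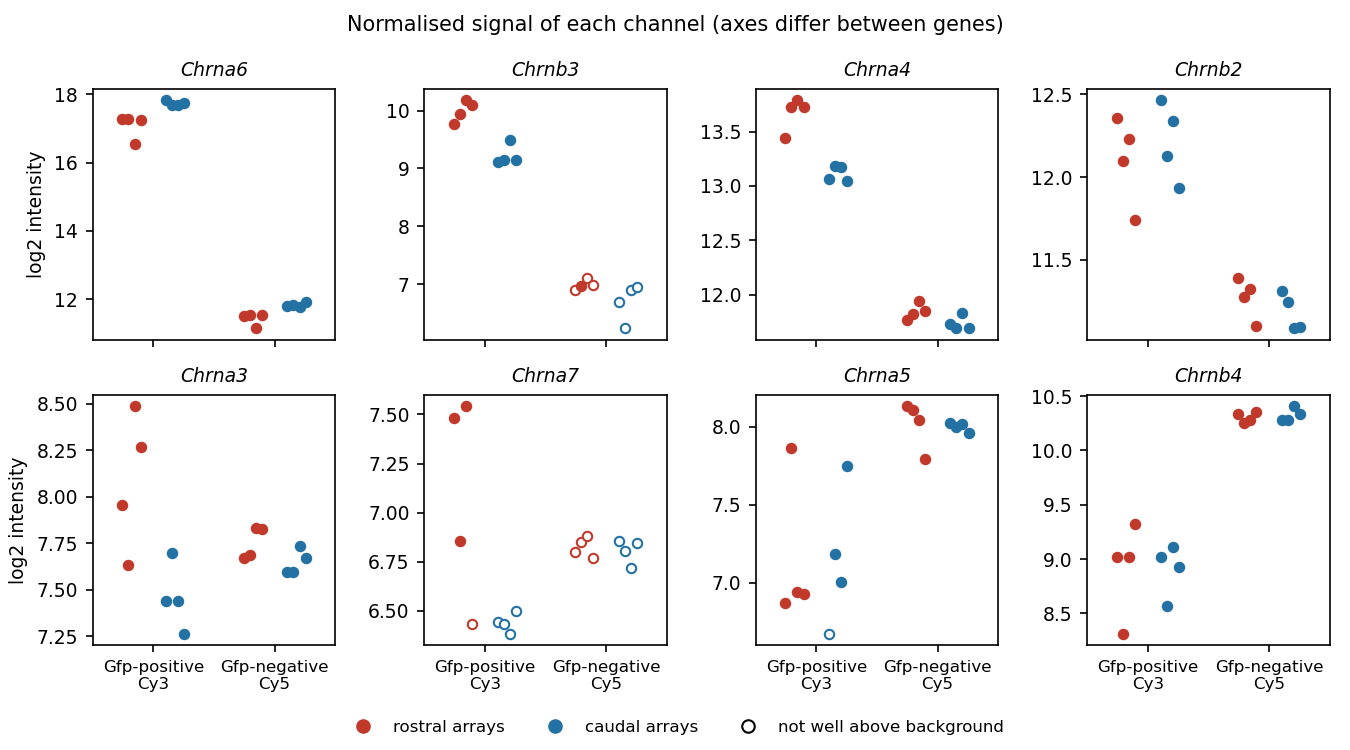
Normalised log2 intensity of the Gfp-positive Cy3 channel (left in each panel) and of the Gfp-negative Cy5 channel (right), 1 point per array, with a y axis of its own for each gene. Open points are not well above background, as on all 8 arrays for Cy5 of Chrna7 and on 7 of 8 for Cy5 of Chrnb3. Chrna6 was higher on the caudal arrays in both channels.

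Differences between 2 log2 ratios of the same array were also taken for pairs of subunits. Chrna6 minus Chrna4 was 4.10, 3.84, 3.56 and 3.82 in rostral pools and 4.68, 4.38, 4.57 and 4.47 in caudal pools. The difference was smaller in every rostral pool than in any caudal pool. That follows from the separation of each of the 2 genes given above and adds nothing to it. Chrna6 minus Chrnb3 was 2.91, 2.76, 2.34 and 2.58 in rostral pools and 3.60, 2.96, 3.33 and 3.63 in caudal pools. It was also smaller in every rostral pool. Chrna4 minus Chrnb2 was 0.71, 1.08, 0.94 and 1.24 in rostral pools and 0.18, 0.61, 0.10 and 0.51 in caudal pools, larger in every rostral pool. These pairs were picked after their values were seen, and they are differences of enrichment over Gfp-negative cells, not ratios of subunits to one another. How often other gene pairs separate in this way was not computed.

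Other cholinergic genes were read from 4 lists. Among 14 chaperones and Ly6-type modulators of nicotinic receptors, 4 lay above the reference in all 8 pools and 5 below it, where 24.4% and 28.1% of all genes did. The chaperone genes Ric3 and Tmem35a (which encodes NACHO) averaged 0.70 and 0.64, although a second well-measured Ric3 probe averaged -0.78. Lynx1, which encodes a membrane-tethered modulator that dampens nicotinic receptors, averaged -0.80. By the brightest probe none was at least 2-fold above the reference, but a second well-measured probe of Ly6h, a Ly6-type gene at 0.33 by its brightest probe, averaged 1.04. Lypd1 was at least 2-fold below the reference, at -1.38. Slurp1 averaged -1.28, with Cy3 well above background on 3 of 8 arrays, and -2.71 with the processed signals.

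Of 13 of these genes tested between the parts, 2 were called, both higher in rostral pools, where 3.53% of all genes were called higher. Vsnl1, which encodes visinin-like 1, a calcium sensor known to bind alpha4, averaged 1.62 ± 0.34 in rostral pools and 0.03 ± 0.27 in caudal pools (SD, n = 4 each), a log2 change of 1.59 (SE 0.20, limma adjusted p = 0.0024). Lypd1, which encodes a Ly6-type protein also called Lynx2, averaged -0.65 ± 0.20 in rostral pools and -2.12 ± 0.31 in caudal pools (SD, n = 4 each), a change of 1.47 (SE 0.16, limma adjusted p = 0.00127). Both changes were larger than any of the subunits'. The median change of the 13 was 0.03, against 0.007 over all genes.

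Of 8 genes of acetylcholine synthesis, transport and breakdown, 2 lay above and 2 below the reference in all 8 pools, shares near the 24.4% and 28.1% of all genes. Prima1, which encodes the membrane anchor of acetylcholinesterase, averaged 2.41 ± 0.25 (SD, n = 8), or 5.33-fold higher in Gfp-positive cells. Bche, which encodes butyrylcholinesterase, averaged -3.40 ± 0.80 (SD, n = 8), or 10.5-fold lower. Ache itself averaged 0.36 ± 0.19, and Chat, which encodes the enzyme that makes acetylcholine, -0.25 ± 0.29 (SD, n = 8 each). None of the 8 was called between rostral and caudal pools. The choline transporter gene Slc5a7 came nearest, with -0.03 ± 0.32 in rostral pools and -0.96 ± 0.45 in caudal pools (SD, n = 4 each) and a limma adjusted p = 0.0578. The 4 probes of Slc44a1, a choline transporter-like gene, disagreed, and 1 that was not brightest changed by -0.91 (limma adjusted p = 0.0353 over all probes). The Cy3 signal of that probe was well above background on 5 of 8 arrays and its Cy5 signal on 0 of 8.

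Among 5 muscarinic receptor genes, 3 were measured against the reference and 0 of 2 tested were called between the parts. Chrm1 averaged -1.75, with Cy3 well above background on 1 of 8 arrays, and Chrm5, known as the muscarinic receptor of dopaminergic neurons, was well above background in Cy3 on 3 of 8 arrays and was not in the comparison. Among 8 other nicotinic subunit genes, those of muscle and of the inner ear included, 3 were measured. Chrna1 averaged -1.05 with Cy3 above background on 2 of 8 arrays, and its second probe gave -0.40. Chrna2 averaged -0.20 and Chrng 0.11, and 0 of 2 tested were called between the parts. Chrna9 and Chrne were well above background in Cy3 on 0 of 8 arrays.

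**Figure D4:**
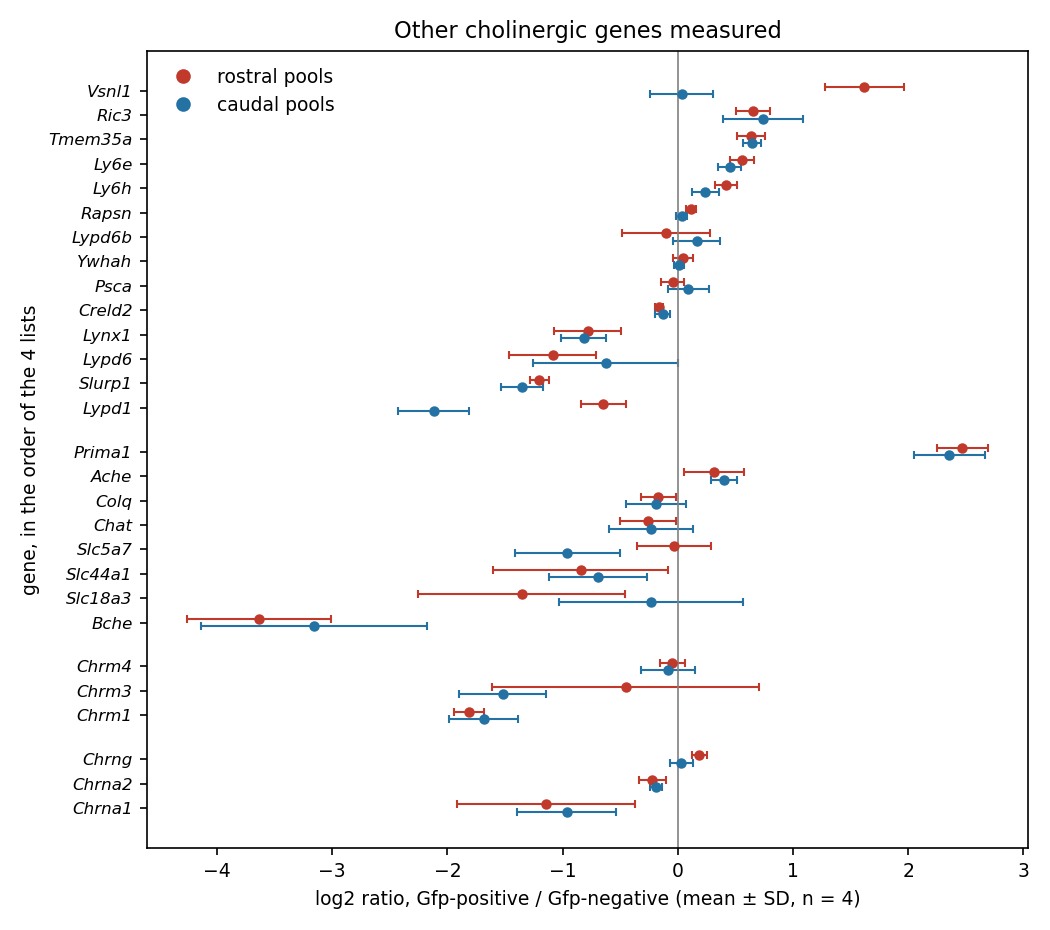
Mean log2 ratio of Gfp-positive over Gfp-negative signal ± SD of 4 pools on the x axis for the measured genes of the 4 cholinergic lists, rostral above caudal for each gene. Prima1 lies furthest right at 2.41 and Bche furthest left at -3.40 over the 8 pools. Vsnl1 and Lypd1 are the genes whose parts differ with an adjusted p below 0.05.

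For each subunit the 3 genes most like it were found by the root mean square difference between their 8 log2 ratios, over 18548 genes. The nearest to Chrna6 were Slc6a3 (0.353), Aldh1a1, which encodes a retinaldehyde dehydrogenase of a subset of dopaminergic neurons (0.449), and Slc18a2, the vesicular monoamine transporter gene (0.862). Of these, Slc18a2 averaged 4.66 in rostral pools and 5.22 in caudal pools, while Slc6a3 and Aldh1a1 had higher rostral means. No gene came within 0.25 of Chrna6 or of Chrnb3, where 3 genes did so of Chrna5, 16 of Chrna4, 17 of Chrnb4, 75 of Chrna3 and 176 of Chrnb2. Chrna6 and Chrnb3 rank 2 and 41 of 18548, so few genes have ratios at their level. The nearest to Chrnb3 were Tyrp1 (0.278), Gckr (0.315) and Ntf3 (0.331), the gene of neurotrophin 3, each with a higher rostral mean.

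The nearest to Chrna4 were Slc27a2 (0.156), Psd (0.17) and Rbms3 (0.185), and to Chrnb2 Brsk2 (0.102), Parp10 (0.142) and Thoc2 (0.143). Chrna3 was nearest to Sdr39u1 (0.152), Fam120a (0.162) and Tmem59l (0.165). Chrna5 was nearest to Penk (0.21), the proenkephalin gene, Dkk4 (0.217) and Ckap2l (0.23), and Chrnb4 to Cyp2j8 (0.168), Klf17 (0.19) and Gm9915 (0.211).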

How the data were processed

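Per the file headers, the deposited scanner output of Agilent Feature Extraction 10.7.3.1 holds the median intensity of each spot and of its local background in 2 channels. Processed intensity, used as an alternative, was deposited in the same files, background-subtracted and dye-normalized per their headers. RMA is named without version or role, per the submitters' processing notes. From the deposited series table only the probe annotation was read, since its 8 value columns match no label. All arrays share 1 slide.

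In R 4.3.3 with limma 3.58.1 (input by data.table, version 1.17.8), median signals, in place of the mean signals planned, were corrected by normexp (offset 50) and normalized by loess, with control and outlier spots at weight 0. Log2 ratios of Cy3 over Cy5 were computed from the deposited intensities, and channel levels after Aquantile. The brightest probe stood for a gene. A gene was tested between the parts with Cy3 well above background on at least 4 of 8 arrays (18099 genes), and set against the reference with either channel so (18548). Tests were lmFit and eBayes with an intensity trend, 2-sided, Benjamini-Hochberg adjusted over all genes, called below 0.05, and were tested on simulated data. Alternatives covered background, scaling, filter, probe choice, channel, slide row, replicate block and left-out pools. The number of arrays limits precision.

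Members, lists and motifs were chosen with earlier results of these data known. Named by rule were all members, list genes called or at least 2-fold from the reference, the 3 genes nearest each member and the neighbours of each cluster. Named after their values were seen were Lynx1, Ric3, Tmem35a, Ache, Chat, Slc5a7, Slc44a1, Chrm5, Chrna2, Chrna9, Chrne and Chrng. The same holds for the markers Slc17a6, Slc32a1, Gad2 and Pecam1. The change of motor and oculomotor markers between the parts is not reported here.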

Additional observations from a re-analysis of the deposited data

Results flagged for a closer look

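Chrna4 met both conditions for a closer look. Its log2 ratio, rostral minus caudal, was 0.443, and the difference between the parts passed limma's test (adjusted p = 0.0147). Among its 4 caudal pools, caudal pool 2 stood apart at 1.49, above the others by 0.907 of the group's whole range, which is past Dixon's 95% critical value for 4 samples. Of 16 groups checked, 1 stood out in this way, and chance alone does so for about 1 group in 20. Without caudal pool 2 the change was 0.48 (limma adjusted p = 0.021).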

How the results depend on the processing

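Over all pools limma called 1145 genes. In a fit to the 4 arrays of slide row 1 alone it called 0 (0 members), and to those of row 2 alone 186 (0 members). Leaving out each replicate in turn gave 715 to 1011 genes, the fewest without caudal pool 1, with 754 without caudal pool 4, and 1 member each time. Deviations of same-numbered pools correlated at 0.0205, -0.0149, -0.0634 and -0.0158, so they showed no shared shift. Whether same-numbered pools came from the same embryos is not clear from the labels. With the replicate number as a block, 724 genes and 0 members were called, Chrna4 having adjusted p = 0.0504. The Cy3 channel alone called 3 members. With probes required to be well above background on all 8 arrays, 1 member lay below the reference in all pools in place of 2, and 3 above it in place of 4, since Chrna5 in Cy3 and Chrnb3 in Cy5 were dim on some arrays and left out.

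The change between the parts turned sign for 2 members that were never called. Chrna5, at -0.02, gave 0.079 with the processed signals, 0.33 within row 1, and 0.11, 0.06 and 0.19 without rostral pool 1, rostral pool 3 and caudal pool 4 (range without 1 pool -0.23 to 0.19). Chrnb4, at 0.04, gave -0.0081 with the processed signals, -0.14 within row 1, and -0.0035, -0.083 and -0.06 without rostral pool 3, rostral pool 4 and caudal pool 2 (range -0.083 to 0.22). Chrna3, Chrna4, Chrna6, Chrnb2 and Chrnb3 kept their sign in 21 of 21 settings each. The filter, probe-choice, intensity-trend and block settings leave these estimates unchanged, so the sign could not turn in them. The Chrnb3 ratio was 3.23 with an offset of 16. Median centring in place of loess put the median of all genes at 0.13 and the ratios of Chrna4, Chrnb2 and Chrnb4 at 1.94, 1.30 and -1.10. The cause of these differences was not tested.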
